A study of Danio rerio with 12 samples.

Results

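Peroxiredoxins were followed across 4 groups of whole zebrafish larvae, as the 6 genes whose symbol in the deposited tables is prdx1, prdx2, prdx3, prdx4, prdx5 or prdx6. They are 6 of the 31540 genes in the tables, each symbol stands on a single protein-coding identifier, and all 6 passed the filter on low counts that left 22399 genes. The members were chosen by symbol, and the family was selected on a measured value, the call of prdx1 at 4 mg/L of bisphenol A (BPA) in an earlier analysis of these libraries. The members' values at 4 mg/L against control are therefore given as a description, with no p-value, and the calls counted there are the ones behind that choice. The lower doses are compared with the same controls, so the values of prdx1 there are not independent of the choice either.

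Peroxiredoxins are small thiol enzymes that reduce hydrogen peroxide, lipid peroxides and peroxynitrite with a reactive cysteine. In most of them the oxidized cysteine forms a disulfide that thioredoxin reduces, with electrons that thioredoxin reductase takes from NADPH, and an overoxidized cysteine can be restored by sulfiredoxin. In mammals PRDX1 and PRDX2 work mainly in the cytosol, PRDX3 in mitochondria and PRDX4 in the endoplasmic reticulum. Mammalian PRDX5 is found in mitochondria, peroxisomes and the cytosol, and PRDX6 uses a single reactive cysteine and also acts on phospholipids. The mammalian PRDX1 gene is a known target of NRF2, the transcription factor of the antioxidant response, and PRDX2 is one of the abundant proteins of red cells.

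The groups were a solvent control and BPA at 0.1, 1 and 4 mg/L, with 3 libraries each. BPA is a plastics monomer that binds estrogen receptors weakly. All larvae were wild type, of a strain that the labels do not name, and all groups, control included, had 0.2% DMSO in the water. Exposure ran from day 2 to day 5 after fertilization, when larvae at the eleutheroembryo stage were taken in pools of 10 per library. Whether pools came from separate clutches or dishes is not stated, so p-values measure the spread between pools, which may be technical. In such bulk samples, fewer cells of a type and less RNA per cell cannot be told apart.

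Total counts ran from 21952242 to 34219276 per library. The members had at least 726 counts in any library, where counting error alone is 3.71% of the value. Levels are CPM, a gene's count as a share of its library's total after TMM scaling of the libraries, and levels of different genes are not compared, since no transcript lengths were used. Markers of liver, red cells, gut, muscle, neurons, epidermis, phagocytes and lens were all detected. The libraries with replicate number 3 stood apart from those with number 1, with 4258 of 22399 genes differing at equal dose.

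prdx1 (ENSDARG00000058734), a member that is mainly cytosolic in mammals, was highest at 4 mg/L and differed less among the other groups. The controls had 44.0, 54.7 and 65.8 CPM. Libraries at 0.1 mg/L had 79.3, 61.6 and 77.8 CPM, and those at 1 mg/L had 73.9, 69.1 and 88.8 CPM. At 4 mg/L the libraries had 146, 155 and 140.5 CPM. All 3 libraries at 4 mg/L lay above the other 9, and none of the others reached 89 CPM. Neighbouring groups below that dose overlapped: 0.1 mg/L overlapped the controls, and 1 mg/L overlapped 0.1 mg/L. The group means were 54.8 ± 10.9, 72.9 ± 9.80, 77.3 ± 10.3 and 147 ± 7.11 CPM in the controls and at 0.1, 1 and 4 mg/L (SD, n = 3 each).

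The level of prdx1 at 4 mg/L was 2.68-fold that of control (log2 fold change 1.42, SE 0.16). It was 1.33-fold that of control at 0.1 mg/L (log2 0.41, SE 0.16) and 1.41-fold at 1 mg/L (log2 0.50, SE 0.16). Neither of these lower doses passed the quasi-likelihood test of edgeR after adjustment over all tested genes by the Benjamini-Hochberg method (adjusted p = 0.959 at 0.1 mg/L and 0.34 at 1 mg/L). Both comparisons use the controls behind the choice of the family, so they are not an independent test of prdx1. Leaving out any 1 of the 12 libraries kept the log2 fold change at 4 mg/L between 1.29 and 1.58, and without the 4 libraries numbered 3 it was 1.62. These fits reuse the libraries behind the choice of prdx1. They show only how far the value rests on single libraries and lend it no independent support.

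**Figure D1:**
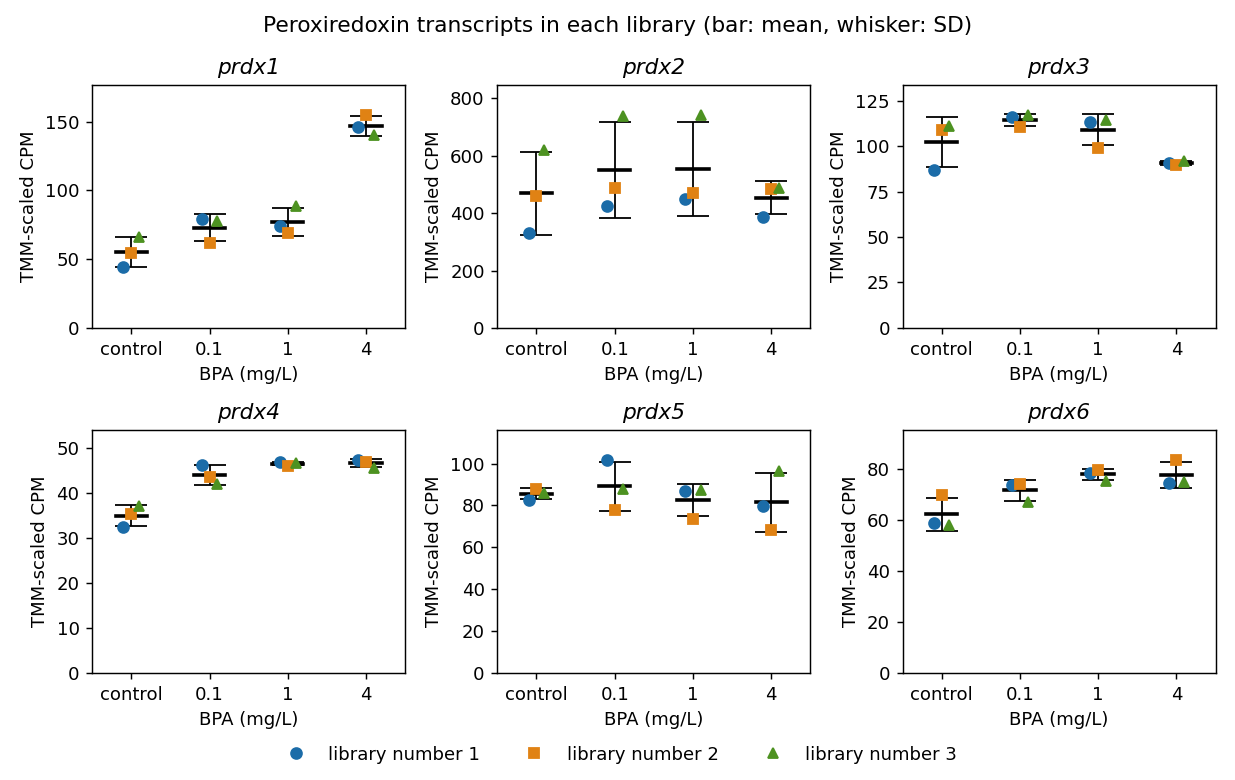
TMM-scaled CPM (vertical axes, from 0) of the 6 peroxiredoxins by BPA dose in mg/L, with 1 point per library, marked by replicate number, and the mean ± SD of each group. prdx1 stands at 140.5 to 155 CPM at 4 mg/L, above the 44.0 to 88.8 CPM of the other 9 libraries, and prdx4 is lowest in the 3 controls.

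prdx4 (ENSDARG00000069013), the member of the endoplasmic reticulum in mammals, stood lowest in the controls and nearly level across the exposed groups. The controls had 32.4, 35.4 and 37.1 CPM. Libraries at 0.1 mg/L had 46.3, 43.5 and 42.1 CPM, those at 1 mg/L had 46.8, 46.1 and 46.7 CPM, and those at 4 mg/L had 47.2, 47.0 and 45.6 CPM. All 9 exposed libraries lay above all 3 controls, by at least 42.1 against 37.1 CPM. Of all tested genes 1.75% had this order, and it was noticed after the values were seen. The 3 exposed groups overlapped each other.

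The level of prdx4 was 1.26-fold that of control at 0.1 mg/L (log2 0.33, SE 0.09), 1.33-fold at 1 mg/L (log2 0.41, SE 0.09) and 1.33-fold at 4 mg/L (log2 0.41, SE 0.09). In edgeR neither tested dose passed (adjusted p = 0.833 at 0.1 mg/L and 0.167 at 1 mg/L). With the replicate number added as a block, prdx4 passed at 1 mg/L (edgeR adjusted p = 0.0398) but not at 0.1 mg/L (0.235). DESeq2 called it at both, with adjusted p = 0.00086 at 1 mg/L and 0.0498 at 0.1 mg/L, where it called 1.44% and 0.19% of the genes it tested. Libraries of the same dose were close to each other, with a pooled SD of 0.06 on the log2 scale. Of 2385 genes of similar level, 1.22% had a smaller one, and their median SD was 0.18.

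prdx6 (ENSDARG00000043511), with the single reactive cysteine, was likewise higher on average in the exposed groups. The controls had 58.9, 69.7 and 58.1 CPM and the libraries at 0.1 mg/L had 73.8, 74.2 and 66.8 CPM. Those at 1 mg/L had 78.4, 79.7 and 75.3 CPM, and those at 4 mg/L had 74.4, 83.3 and 74.7 CPM. The groups at 1 and 4 mg/L lay above the controls and overlapped each other, while 0.1 mg/L overlapped the controls through control 2. The log2 fold change was 0.20 (SE 0.11) at 0.1 mg/L, 0.32 (SE 0.11) at 1 mg/L and 0.32 (SE 0.11) at 4 mg/L, with adjusted p = 0.99 and 0.385 in edgeR at 0.1 and 1 mg/L.

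prdx3 (ENSDARG00000032102), the mitochondrial member in mammals, was lowest at 4 mg/L. The controls had 86.7, 109 and 111 CPM, the libraries at 0.1 mg/L 116, 111 and 117 CPM, and those at 1 mg/L 113, 99.2 and 114 CPM. At 4 mg/L the libraries had 90.4, 89.6 and 91.7 CPM, which lay below all 6 libraries of the lower doses but within the range of the controls, where control 1 was the lowest of the 12. The log2 fold change over control was −0.17 (SE 0.12) at 4 mg/L, 0.09 (SE 0.12) at 1 mg/L and 0.16 (SE 0.12) at 0.1 mg/L (edgeR adjusted p = 0.85 at 1 mg/L and 0.99 at 0.1 mg/L).

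prdx5 (ENSDARG00000055064) and prdx2 (ENSDARG00000025350) overlapped across all 4 groups. prdx5, which in mammals is shared among mitochondria, peroxisomes and cytosol, had 82.7, 87.9 and 86.0 CPM in the controls and 101, 78.0 and 87.9 CPM at 0.1 mg/L. It had 87.0, 73.7 and 87.3 CPM at 1 mg/L and 79.7, 68.5 and 96.5 CPM at 4 mg/L. Its fold over control was 0.97 at 1 mg/L (95% interval 0.78 to 1.202) and 1.04 at 0.1 mg/L (0.84 to 1.295). A change within these bounds thus remains possible. The intervals are not adjusted for the number of genes tested and are no limit of detection.

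prdx2, the red cell member in mammals, had 330, 459 and 620 CPM in the controls and 424, 488 and 738 CPM at 0.1 mg/L. It had 449, 471 and 741 CPM at 1 mg/L and 386, 485 and 489 CPM at 4 mg/L. At each of the 4 doses replicate 3 was the highest and replicate 1 the lowest. The fold over control was 1.18 at 1 mg/L (95% interval 0.78 to 1.78) and 1.17 at 0.1 mg/L (0.78 to 1.77). The names of prdx1 and prdx2 are those of the deposited tables: a reference name table pairs the prdx2 identifier with PRDX1, and RefSeq lists prdx1 among the synonyms of prdx2. Whether reads that match more than 1 gene were shared out between such related genes is not given in the sources used here, so both levels are uncertain to that extent.

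Counted over the family, 3 of the 6 log2 fold changes were above 0 at 4 mg/L, with a median of 0.13, against −0.00 over all tested genes. At 1 mg/L 5 were above 0 with a median of 0.28, and at 0.1 mg/L all 6 with a median of 0.22, beside −0.01 over all genes at each of these doses. At 4 mg/L edgeR called 1 of the 6, prdx1, and 0.281% of all tested genes. As this is the contrast that led to the choice of the family, nothing is read from the members' counts there. At 1 mg/L edgeR called 0 of 6 and 0.067% of all genes, with 3 of 6 at an unadjusted p under 0.05 (8.77% of all genes) and 1 of 6 in DESeq2 (1.44% of all genes). At 0.1 mg/L edgeR called 0 of 6 and 0% of all genes, with 2 of 6 at an unadjusted p under 0.05 (5.01% of all genes) and 1 of 6 in DESeq2 (0.19% of all genes). At both doses prdx1 is among the members with an unadjusted p under 0.05. These doses share their controls with the contrast of the choice, so nothing is read from prdx1 in these counts.

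At 1 mg/L, prdx1, prdx4 and prdx6 lay above the controls without overlap, 3 of 6 members, as did 8.05% of all tested genes. At 0.1 mg/L prdx4 did so, 1 of 6 members, as did 5.09% of all genes. At 4 mg/L it was again prdx1, prdx4 and prdx6, where 8.23% of all genes did. The controls are those behind the choice of the family, so nothing is read from prdx1 in these counts.

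**Figure D2:**
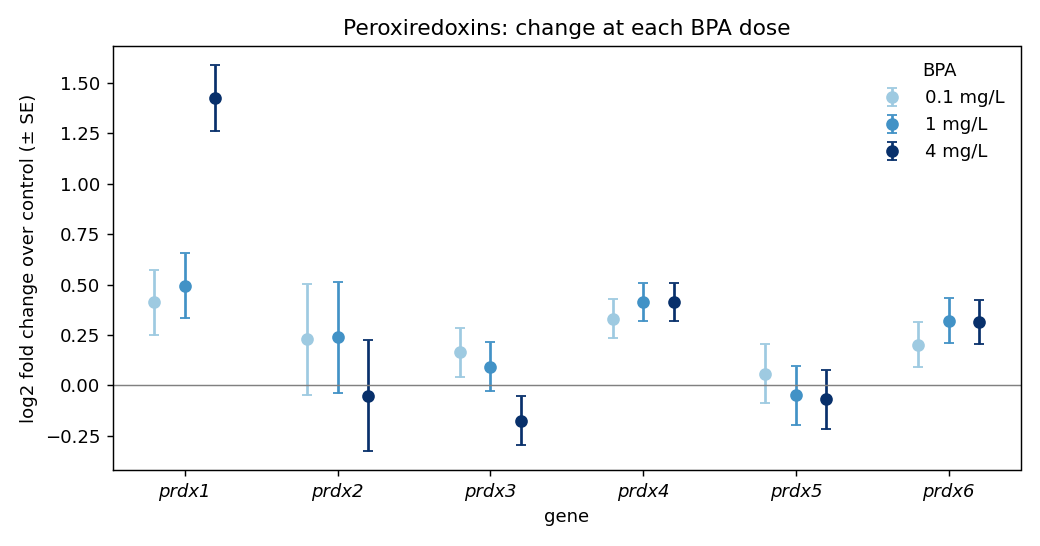
Log2 fold change over control (vertical axis, ± SE from edgeR) of each peroxiredoxin at 0.1, 1 and 4 mg/L. prdx1 reaches 1.42 at 4 mg/L, after 0.41 and 0.50 at the lower doses, while prdx4 and prdx6 stay between 0.20 and 0.41 at all 3 doses and prdx3 lies at −0.17 at 4 mg/L.

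Between the exposed groups, prdx1 at 4 mg/L was 1.90-fold its level at 1 mg/L (log2 0.93, SE 0.16) and 2.02-fold its level at 0.1 mg/L (log2 1.01, SE 0.16). The libraries at 4 mg/L are those in which prdx1 was singled out, so these differences are a description, with no p-value, and nothing is read from the calls of prdx1 counted here. In each comparison edgeR called 0 of 6 members, beside 0.00893% of all genes. With the replicate number as a block, which pairs the exposed libraries, it called 1 of 6 in each, prdx1, beside 0.067% of all genes against 1 mg/L and 0.143% against 0.1 mg/L. At an unadjusted p under 0.05 the count was 2 of 6 in each, prdx1 and prdx3, beside 4.72% of all genes against 1 mg/L and 6.68% against 0.1 mg/L. DESeq2 called 1 of 6 in each, prdx1, beside 0.159% and 0.26% of all genes.

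prdx3 moved the other way in these comparisons. Its level at 4 mg/L was 0.83-fold that at 1 mg/L (log2 −0.27, SE 0.12, edgeR adjusted p = 0.997) and 0.79-fold that at 0.1 mg/L (log2 −0.34, SE 0.12, edgeR adjusted p = 0.718). With the replicate number as a block, its adjusted p in edgeR was 0.437 against 1 mg/L and 0.21 against 0.1 mg/L. The groups did not overlap in either comparison, an order that 5.63% and 6.88% of all genes had in the downward direction. In the upward direction the groups did not overlap for 1 of 6 members against 1 mg/L, prdx1, as for 3.74% of all genes, and for 2 of 6 against 0.1 mg/L, prdx1 and prdx6, as for 6.06% of all genes. From 0.1 to 1 mg/L the members' log2 fold changes lay between −0.11 and 0.12. edgeR called 0 of 6 there and 0.00893% of all genes, with 0 of 6 at an unadjusted p under 0.05 and 0 of 6 in DESeq2, where 1.95% and 0.0073% of all genes passed. Only prdx6 did not overlap, 1 of 6 members, higher at 1 than at 0.1 mg/L, as were 3.06% of all genes.

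The summed level of the family moved less than prdx1 did. It was 809 ± 172, 942 ± 163, 947 ± 179 and 896 ± 63.0 CPM in the controls and at 0.1, 1 and 4 mg/L (SD, n = 3 each). Without prdx1 the sum was 750 ± 63.0 CPM at 4 mg/L and 754 ± 161 CPM in the controls. prdx1 supplied 17.7%, 16.7% and 15.0% of the family's scaled counts at 4 mg/L and 6.93%, 6.71% and 6.73% in the controls. Its share was 9.43%, 7.19% and 6.88% at 0.1 mg/L and 8.71%, 8.23% and 7.70% at 1 mg/L. These shares are of counts, which also depend on transcript length, and serve only to compare libraries.

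Within each dose, prdx2 was higher in the library numbered 3 than in the library numbered 1. Its libraries with number 3 had 620, 738, 741 and 489 CPM in the controls and at 0.1, 1 and 4 mg/L, against 330, 424, 449 and 386 CPM with number 1. The ratio of number 3 to number 1 was 1.88, 1.74, 1.65 and 1.26 from control to 4 mg/L. With dose in the model, the log2 difference between numbers 3 and 1 was 0.70 (SE 0.11, edgeR adjusted p = 0.003), higher in all 4 dose groups. edgeR called 1 of 6 members, prdx2, beside 19% of all tested genes, so the count is near the background and is not a result about the family. DESeq2 also called 1 of 6, beside 18.1% of all genes, and 1 of 6 had an unadjusted p under 0.05, beside 34.2%. Leaving out any 1 library kept the difference between 0.63 and 0.80 with the call in all 12 fits. Between numbers 2 and 1 prdx2 differed by 0.27 (SE 0.11, edgeR adjusted p = 0.267), where edgeR called 0 of 6 members and 0.0938% of all genes, with 1 of 6 at an unadjusted p under 0.05 (16.5% of all genes) and 0 of 6 in DESeq2 (2.98% of all genes).

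Marker genes moved with the replicate number too. Between numbers 3 and 1, edgeR called 9 of 12 skeletal muscle markers higher and 1 lower, with a median log2 difference of 0.50, and 4 of 11 tested red cell markers higher and 1 lower, with a median of 0.33. Over all tested genes edgeR called 19% in either direction. The part of these markers in the difference of prdx2 was not tested. prdx1 differed by 0.19 (SE 0.12, adjusted p = 0.303 in edgeR) between numbers 3 and 1. prdx4 averaged 42.9 ± 4.34 CPM with number 3, 43.0 ± 5.26 with number 2 and 43.2 ± 7.21 with number 1 (SD, n = 4 each).

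**Figure D3:**
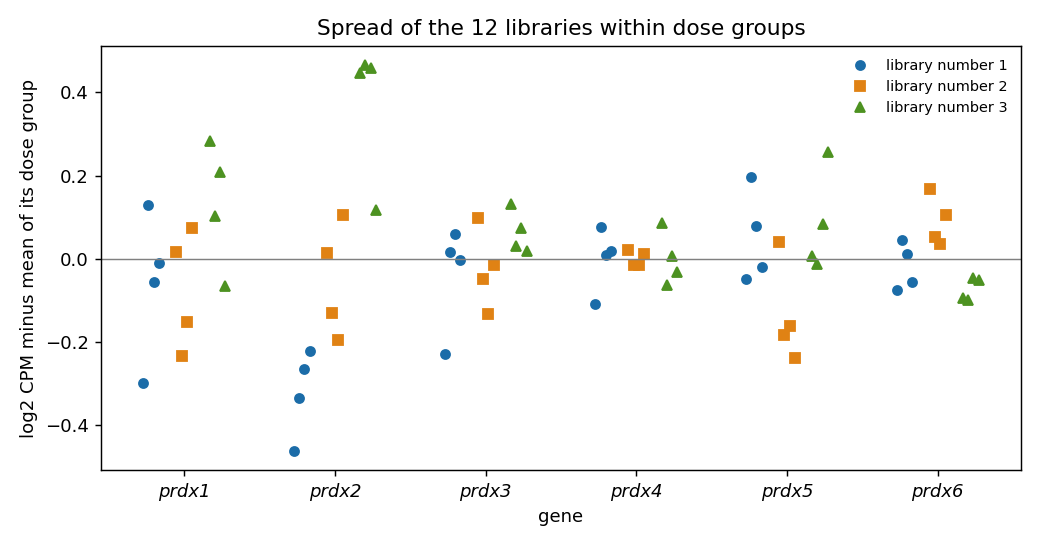
Log2 CPM of each library minus the mean of its dose group (vertical axis) for the 6 peroxiredoxins, by replicate number. For prdx2 the 4 libraries numbered 3 lie above 0 and the 4 numbered 1 below it, while the 12 points of prdx4 stay within 0.11 of 0.

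Marker levels also differed between doses. The summed CPM of 11 hepatocyte markers was 1935 to 2587 at 4 mg/L, against 1003 to 1753 in the controls. It was 1727 to 2122 at 0.1 mg/L and 2271 to 2687 at 1 mg/L. The 12 red cell markers in the tables, of 16 listed, summed to 1164 to 1260 at 4 mg/L, against 571 to 981 in the controls, and to 754 to 1358 at 1 mg/L. The 9 gut epithelium markers summed to 1283 to 1987 at 4 mg/L, against 1073 to 1538 in the controls. All 9 had a log2 fold change above 0 (median 0.60), and edgeR called 1, beside 0.281% of all genes. The 12 skeletal muscle markers summed to 60087 to 78611 at 4 mg/L, against 76463 to 127374 in the controls. Above 0 at 4 mg/L were 1 of these 12, 9 of 11 hepatocyte markers and 11 of 11 tested red cell markers. edgeR called 0, 1 and 1 of them, beside 0.281% of all genes. The 5 epidermis markers summed to 27602 to 40146 at 4 mg/L, against 39766 to 57195 in the controls, and 0 of 5 had a log2 fold change above 0 (median −0.47, 0 called by edgeR). The 7 phagocyte markers summed to 85.9 to 103 at 4 mg/L, against 106 to 111 in the controls. Sums of 7 neuron markers (447 to 670 against 414 to 577) and 5 lens markers (644 to 1010 against 813 to 939) overlapped the controls. None of these markers was at 0 in all libraries, and their part in the levels of the peroxiredoxins was not tested.

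The genes of the thioredoxin system lay on both sides of 0 at 4 mg/L. The list holds thioredoxins, thioredoxin reductase, sulfiredoxin and sestrins, and also txnipa and txnipb, whose mammalian counterpart inhibits thioredoxin, and the thioredoxin-like genes nxn, nxnl1, nxnl2 and txnl1, which are not known to recycle peroxiredoxins. Of its 14 tested genes, 5 had a log2 fold change above 0 and 9 below it, and the median was −0.13. edgeR called 0 of them, with 5 at an unadjusted p under 0.05 (12.4% of all genes) and 1 in DESeq2 (2.29% of all genes). txnrd1, a thioredoxin reductase, had 174, 168 and 128 CPM at 4 mg/L, against 116, 116 and 98.4 CPM in the controls (log2 0.51, SE 0.16, edgeR adjusted p = 0.235). Its 3 libraries at 4 mg/L lay above the controls, as did those of 8.23% of all genes. sesn1, a stress-induced sestrin that restrains growth signalling, had 230, 245 and 245 CPM at 4 mg/L, against 382, 456 and 415 CPM in the controls (log2 −0.80, SE 0.17, edgeR adjusted p = 0.075). It was the gene of this list that DESeq2 called. The thioredoxin genes txn and txn2 averaged 50.2 and 49.9 CPM at 4 mg/L, against 40.1 and 58.1 CPM in the controls. zgc:56493, of the same list, averaged 170 CPM at 4 mg/L and 166 CPM in the controls (log2 0.04, edgeR adjusted p = 0.93). srxn1, the sulfiredoxin gene, averaged 1.13 CPM at 4 mg/L and 1.14 CPM in the controls.

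Of 12 other enzymes that remove peroxide or superoxide, 7 were above 0 and 5 below at 4 mg/L, and the median was 0.05. edgeR called 0 of them, with 5 of 12 at an unadjusted p under 0.05, beside 12.4% of all genes, and 1 in DESeq2, beside 2.29%. sod3a, an extracellular superoxide dismutase, had 4.45, 5.90 and 6.19 CPM at 4 mg/L, against 2.97, 2.60 and 3.27 CPM in the controls (log2 0.91, SE 0.18, edgeR adjusted p = 0.0655). Its paralog sod3b was lower, 3.16 ± 0.23 CPM against 5.06 ± 0.89 CPM in the controls (log2 −0.69, SE 0.20, edgeR adjusted p = 0.203). cat, which encodes catalase, averaged 108 CPM at 4 mg/L, 121 CPM at 1 mg/L and 103 CPM at 0.1 mg/L, against 78.9 CPM in the controls. It was not called by edgeR (adjusted p = 0.38 at 4 mg/L and 0.336 at 1 mg/L). The lowest library at 0.1 mg/L had 84.8 CPM, below the 90.1 CPM of control 1. gpx4a, of the same list, averaged 355 CPM at 4 mg/L, against 656 CPM in the controls (log2 −0.89, SE 0.28, edgeR adjusted p = 0.22). Its libraries had 303, 335 and 427 CPM at 4 mg/L and 460, 651 and 858 CPM in the controls. It averaged 636 CPM at 1 mg/L and 793 CPM at 0.1 mg/L. Between replicate numbers 3 and 1 edgeR called 2 genes of this list higher, gpx4a (log2 0.61) and sod1 (log2 0.75). Over all genes it called 19% in either direction. The part of this in the values at 4 mg/L was not tested.

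Of 29 genes of the Nrf2 pathway and its known targets, prdx1 left aside, 23 had a log2 fold change above 0 at 4 mg/L and the median was 0.33. txnrd1 and srxn1 stand both in this list and in that of the thioredoxin system, so the counts of these lists are not separate. edgeR called 0 of them, with 16 at an unadjusted p under 0.05, where 12.4% of all genes passed, and 8 in DESeq2, which called 2.29% of all genes. The 16 hold genes of both directions. Of the 6 genes below 0, tkta had log2 −0.50 (SE 0.17, edgeR adjusted p = 0.26). fth1b had log2 −0.32 (SE 0.10, edgeR adjusted p = 0.23). gsr, which encodes glutathione reductase, had 47.4, 50.3 and 44.1 CPM at 4 mg/L, against 30.1, 33.4 and 33.8 CPM in the controls (log2 0.54, SE 0.10, edgeR adjusted p = 0.0562). gclc, the catalytic subunit of the enzyme that starts glutathione synthesis, had 51.1, 50.5 and 45.6 CPM at 4 mg/L, against 35.6, 33.8 and 32.2 CPM in the controls (log2 0.53, SE 0.10, edgeR adjusted p = 0.0586). Both lay above all controls without overlap, as did 8.23% of all genes. They are named as the first 2 of the list by adjusted p in this comparison, so nothing is read from that order. With the replicate number as a block, edgeR called 12 of the 29 genes at 4 mg/L, beside 4.88% of all genes. Between replicate numbers 3 and 1 edgeR called 2 genes of this list higher and 5 lower, beside 19% of all genes in either direction. Their part in the result at 4 mg/L was not tested. At 1 and 0.1 mg/L the list had medians of 0.14 and 0.04, with 0 genes called by edgeR at either dose. At an unadjusted p under 0.05 the counts were 5 and 0, beside 8.77% and 5.01% of all genes. DESeq2 called 1 and 0, beside 1.44% and 0.19% of all genes.

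Of 12 genes of thiol oxidation in the endoplasmic reticulum, where PRDX4 works in mammals, 11 had a log2 fold change above 0 at 4 mg/L, where the median was 0.57, and 10 at each of the lower doses, with medians of 0.38 at 1 mg/L and 0.30 at 0.1 mg/L. edgeR called 0 of them at any dose, and with the replicate number as a block 6 at 4 mg/L, beside 4.88% of all genes. At 4 mg/L 8 passed an unadjusted p under 0.05, beside 12.4% of all genes, and 1 was called by DESeq2, beside 2.29%. At 1 mg/L the numbers were 2 and 0, beside 8.77% and 1.44% of all genes. At 0.1 mg/L they were 0 and 0, beside 5.01% and 0.19%. qsox1, a sulfhydryl oxidase, had 25.3, 24.9 and 20.7 CPM at 4 mg/L, against 17.9, 8.60 and 13.9 CPM in the controls (log2 0.81, SE 0.22, edgeR adjusted p = 0.175). ero1a, an oxidase that recharges protein disulfide isomerase, averaged 2.98 ± 1.15 CPM at 4 mg/L and 1.60 ± 0.36 CPM in the controls (log2 0.89, SE 0.26, edgeR adjusted p = 0.20). The list also moved with the replicate number, with all 12 genes lower in number 3 than in number 1. edgeR called 5 of them, beside 19% of all genes in either direction. The part of this in the list's level at 4 mg/L was not tested.

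Of 20 peroxisome genes, 15 had a log2 fold change above 0 at 4 mg/L and the median was 0.11. edgeR called 0 of them, with 2 of 20 at an unadjusted p under 0.05 and 1 of 20 in DESeq2, near the 12.4% and 2.29% of all genes. hao1, a peroxide-forming oxidase of liver peroxisomes, averaged 24.0 ± 4.18 CPM at 4 mg/L and 12.2 ± 3.71 CPM in the controls (log2 0.98, SE 0.21, edgeR adjusted p = 0.0877). At the lower doses hao1 averaged 26.2 CPM (1 mg/L) and 22.8 CPM (0.1 mg/L). pex6, a factor of peroxisomal protein import, averaged 3.61 ± 0.12 CPM at 4 mg/L and 5.21 ± 0.25 CPM in the controls (log2 −0.53, SE 0.14, edgeR adjusted p = 0.15).

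**Figure D4:**
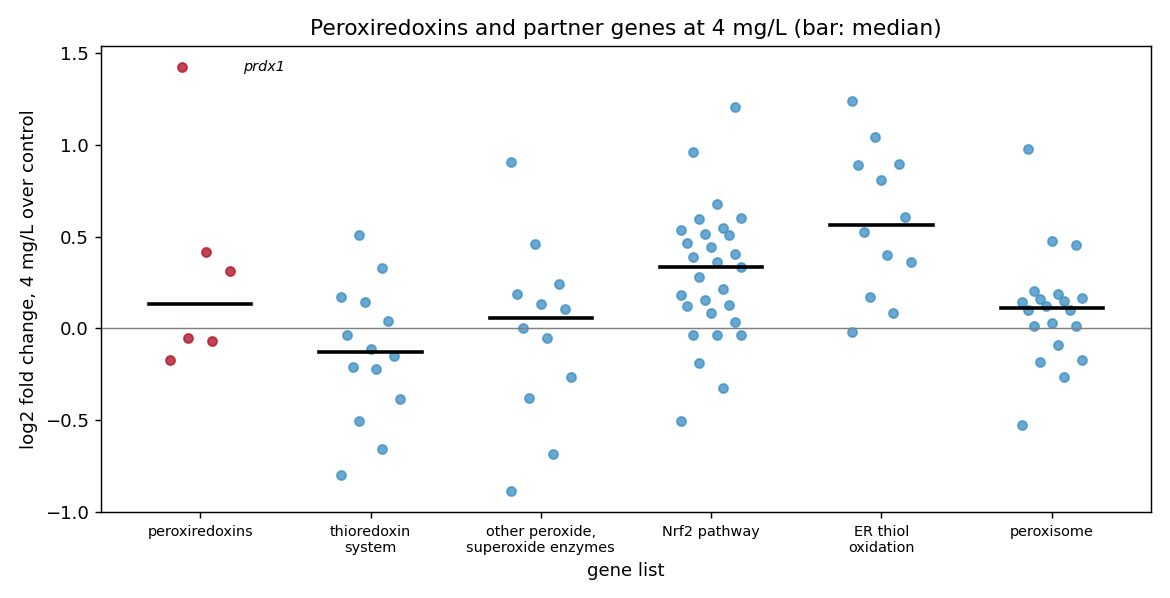
Log2 fold change at 4 mg/L over control (vertical axis) of each peroxiredoxin and each tested gene of 5 partner lists, with the median of each list as a bar. prdx1 at 1.42 lies above every partner gene shown, and the medians run from −0.13 for the thioredoxin system to 0.57 for thiol oxidation in the endoplasmic reticulum. The family was chosen on the call of prdx1 in this comparison, so nothing is read from its place above the partner genes.

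The genes with a pattern most like that of prdx1 over the 12 libraries were sought among 13944 genes with a symbol and a mean of at least 5 CPM. Likeness was the root mean square difference of log2 CPM, each gene centred on its own controls, and the median over these genes was 0.83. The closest were slc10a2 (0.29), which takes up bile acids, and slc51a (0.31), a subunit of a bile acid exporter. They were followed by the identifiers ENSDARG00000088330 and ENSDARG00000089124, which share the symbol si:ch211-5k11.2 (0.33 each), by IZUMO1R (0.33) and by CPN2 (0.33), a subunit of a plasma carboxypeptidase. slc10a2 averaged 8.72 ± 2.18, 10.1 ± 0.24, 14.9 ± 1.498 and 19.5 ± 3.504 CPM in the controls and at 0.1, 1 and 4 mg/L, and slc51a averaged 14.4 ± 2.23, 18.2 ± 0.26, 26.9 ± 4.64 and 34.6 ± 4.08 CPM (SD, n = 3 each). At 1 mg/L all 6 stood higher over their own controls than prdx1 did, by log2 0.63 to 0.99 against 0.50. None of the 6 is shared with the genes that a Pearson correlation picks instead.

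**Figure D5:**
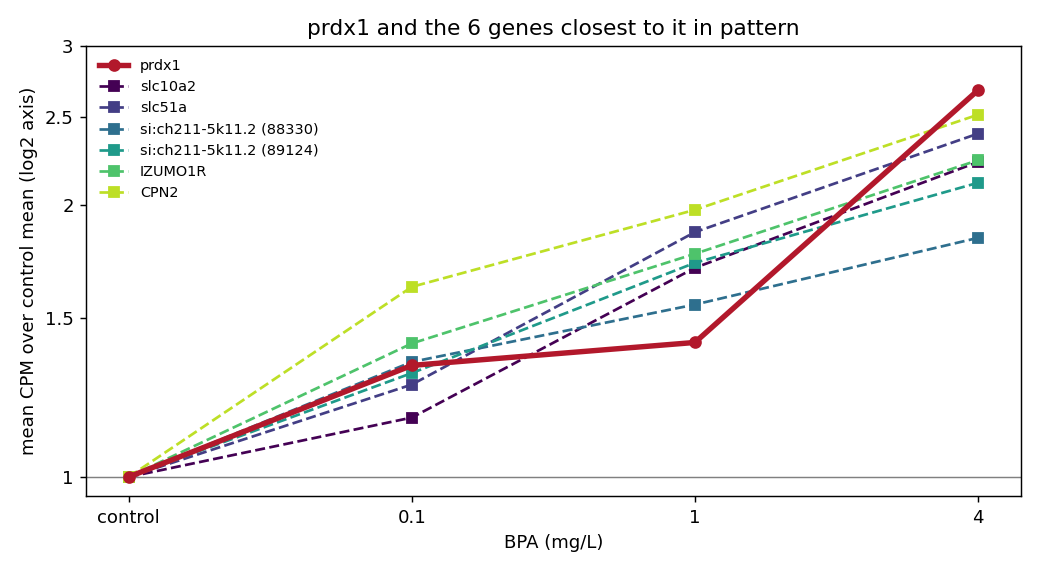
Mean CPM over the control mean (vertical axis, log2 scale) by BPA dose in mg/L for prdx1 and the 6 genes closest to it over the 12 libraries. prdx1 is 1.41-fold its controls at 1 mg/L, below the 6 other lines, and 2.68-fold at 4 mg/L, above them. The family was chosen on the call of prdx1 at 4 mg/L.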

How the data were processed

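Each library came as a table of deposited counts that were not normalized, and 0 values were other than whole. The aligner STAR 2.5.1b, the quantifier RSEM 1.2.28, CASAVA, the build GRCz10 and DESeq2 1.10.1 are listed without order, per the submitters' processing notes, so the counts may be estimates rounded before deposit. Per the labels' protocols the poly-A libraries keep strand; the sources used here do not give whether counting used it. The members, lists and tests were chosen with earlier results of these data known.

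After filterByExpr at its default count of 10 and total of 15, libraries were scaled by TMM and all 12 entered 1 fit on dose group in edgeR 4.0.16 (R 4.3.3). Quasi-likelihood tests were two-sided, and p-values were adjusted over all 22399 genes (Benjamini-Hochberg, threshold 0.05). Replicate numbers were compared in the same model with the number added. Standard errors are the log2 fold change over the square root of F. log2 CPM used a prior count of 2. A gene of similar level to a member was within 0.5 in mean log2 CPM. No library pair of a group was alike to within sampling (26.2 to 75.0 chi-square units a degree of freedom), so all 12 were kept.

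Deviations from the group means correlated in every same-numbered pair of exposed libraries (0.23 to 0.51). With control, the pairs numbered 1 and 3 correlated too (0.21 to 0.45), while the pairs numbered 2 did not (−0.24 to 0.002). Pairs of unlike number with control ran from −0.49 to 0.29. The highest of these, library 2 at 1 mg/L with control 1, lay above the same-numbered pair of control 1 at that dose (0.25). Whether the number also pairs controls with exposed libraries is thus unsettled. The main fit had no block, and the blocked fit is given as an alternative. Partner genes were named by a rule: up to 6 called genes of each list, otherwise its first 2 by adjusted p. The thioredoxin, sulfiredoxin and catalase genes, zgc:56493, gpx4a, tkta and fth1b were added to the named ones with their values known. Alternatives were DESeq2 1.42.0, RLE scaling, no filter, at least 1 CPM in 3 libraries, only the 2 groups compared, the replicate block, only libraries numbered 1 and 2, each library left out, and Pearson correlation as the measure of likeness. DESeq2 shares are of the genes to which it gave an adjusted p. A planned search for promoter motifs was not made. Scripts were tested on simulated data.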

Additional observations from a re-analysis of the deposited data

How the results depend on the processing

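The direction of prdx1, prdx4 and prdx6 over control held at all 3 doses under every alternative run. All these runs reuse the same 12 libraries, and the 3 doses share their controls, so they add no independent support for any of these genes. For prdx1 they also reuse the libraries behind the choice of the family. With 3 libraries a group, small changes of the others were not resolved. prdx2 at 4 mg/L had a log2 fold change of 0.16 with only libraries numbered 1 and 2, and −0.25 to 0.21 when 1 library was left out (−0.05 with all 12). Leaving out 1 library gave −0.017 to 0.48 at 1 mg/L and −0.034 to 0.48 at 0.1 mg/L for prdx2, −0.013 to 0.16 at 1 mg/L for prdx3, and −0.19 to 0.043, −0.088 to 0.027 and −0.045 to 0.15 at 4, 1 and 0.1 mg/L for prdx5. The cause was not tested. Over all genes, the numbers called by edgeR at 4, 1 and 0.1 mg/L against control were 63, 15 and 0. They were 482, 274 and 30 in DESeq2 and 1094, 299 and 2 with the replicate block. Controls numbered 1 and 3 deviated alike with the exposed libraries of their number, but control 2 did not. Control 1 also deviated alike with library 2 at 1 mg/L (correlation 0.29), so the pairing with controls is unsettled. Under that block prdx4 passed at 1 mg/L (adjusted p = 0.0398 in edgeR). With only libraries numbered 1 and 2 the numbers at 4 and 1 mg/L were 21 and 0, and with only the 2 groups compared the number at 1 mg/L was 3. Leaving out 1 library gave 14 to 106, 0 to 11 and 0 to 0 at 4, 1 and 0.1 mg/L. For 4 against 1 mg/L, 4 against 0.1 mg/L and 1 against 0.1 mg/L edgeR called 2 each. DESeq2 called 42 and 59 in the first pair of these, and the replicate block 15 and 32. At least 1 CPM in 3 libraries gave 1 for 4 against 1 and for 1 against 0.1 mg/L. Only the 2 groups compared gave 1, 1 and 0, only libraries numbered 1 and 2 gave 0, 1 and 0, and leaving out 1 library gave 1 to 2, 1 to 3 and 0 to 2. Between numbers 3 and 1 edgeR called 4258 genes, and 2491 to 4972 when 1 library was left out. Between numbers 2 and 1 it called 21, against 581 in DESeq2, 43 without a filter and 0 to 637 when 1 library was left out. Against control the block called 1 of 6 members at 1 mg/L and 0 at 0.1 mg/L, beside 1.33% and 0.00893% of all genes. At 4 mg/L it called 12 of 29 Nrf2 genes, gsr (adjusted p = 0.013 in edgeR) and gclc (0.00732) included, 6 of 12 genes of thiol oxidation, 4 of 20 peroxisome genes, 2 of 14 of the thioredoxin system and 2 of 12 other peroxide enzymes, beside 4.88% of all genes. txnrd1 is counted both among the Nrf2 genes and in the thioredoxin system. Leaving out 1 library put the adjusted p at 4 mg/L between 0.0431 and 0.203 for gsr, with the call in 2 of 12 fits, and between 0.0462 and 0.286 for sesn1, with the call in 1 of 12. The promoter motif count was not run. Among genes most like prdx1, 0 of 6 were shared between the measures.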
